A study of Homo sapiens with 6 samples.

Results

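The 40 genes described here encode RNA-binding proteins and spliceosome components. They were chosen by name from textbook families, with earlier results of these data known. They comprise 12 genes of SR and TRA2 proteins, 15 of heterogeneous nuclear ribonucleoproteins (hnRNPs), 2 of polypyrimidine tract binding (PTB) proteins, 7 of the SF3 complex, 2 of U2AF, and PRPF8 with SNRNP200. PRPF8 and SNRNP200 are proteins of the U5 particle and not of the U2 particle. Each of the 40 symbols matched 1 row of a table of 64252 gene rows, and all 40 were among the 18734 genes with enough counts to test. RNA was sequenced in bulk from SK-N-BE(2), an established human neuroblastoma line with amplified MYCN. One pair of libraries carried hairpin 1 against BCAT1 (shBCAT1), one pair carried hairpin 2, and one pair carried a control hairpin (shControl). All 3 groups are the same line, and no group lacks a hairpin. The series title places BCAT1, which transfers the amino group of branched-chain amino acids in the cytosol, upstream of N-Myc stability. The labels do not give the vector, the duration of the knockdown or whether it was done in a clone. They also leave out whether replicates were separate cultures. The p-values therefore cover the spread between these libraries only, and part of that spread may be technical. A value over both hairpins is the mean of the hairpins against control. Its p-value rests on the spread within groups and does not measure whether the hairpins agree.

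Splicing removes introns from nascent RNA. U2AF and the SF3 proteins of the U2 particle mark the branch point and the end of the intron, and the U5 proteins PRPF8 and SNRNP200 later act at the catalytic centre. SR proteins bind exons and mostly promote their inclusion, whereas hnRNPs and PTB proteins bind exons and introns and often repress it. Several of these genes, among them SRSF1, HNRNPA1 and PTBP1, are known targets of MYC, and many SR and hnRNP genes control their own level through poison exons that send the transcript to decay. A count per gene cannot show which exons were used.

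BCAT1 itself held 55.8 and 55.3 CPM with hairpin 1 and 116 and 111 CPM with hairpin 2, against 459 and 475 CPM in control cells. BCAT1 was thus lower in all 4 knockdown libraries, and levels in CPM are counts rescaled to a common library size with TMM factors. Libraries held 32333416 to 39321388 counts each. The 40 genes took 1.52% to 1.60% of the counts of each library. All 9 neuroblastoma markers exceeded 1 CPM in every library, with summed levels of 1240 to 1510 CPM in knockdown cells and 1670 to 1690 CPM in control cells. Of 7 fibroblast markers, 6 exceeded 1 CPM in every library, and they summed to 483 to 687 CPM in knockdown cells and 734 to 749 CPM in control cells. Schwann cell markers did so in 0 of 4 cases (1.51 to 2.36 CPM in knockdown cells, 1.75 to 2.01 CPM in control cells). Epithelial markers did so in 1 of 4 cases (5.13 to 6.78 CPM against 3.86 to 4 CPM in control cells), and leukocyte markers in 1 of 4 (14.4 to 33.7 CPM against 34.5 to 37.7 CPM in control cells). SOX10 and CD3E were at 0 in every library. The part of these marker levels in the results was not tested.

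With BCAT1 knockdown most of these genes differed by small amounts, in both directions, with HNRNPD the largest fall and SF3B1 the largest rise. Over both hairpins against control, 12 of the 40 genes rose, 17 fell and 11 did not pass the test (edgeR's quasi-likelihood test, Benjamini-Hochberg adjusted p under 0.05 over 18734 genes). Among all genes tested, 23.6% rose and 26.4% fell, so that 50% passed in either direction. The share of the 40 genes that rose was 30%, and the share that fell was 42.5%. After correction of each library for GC content and transcript length, 9 of the 40 genes rose and 22 fell, where 22.8% and 28.5% of the protein-coding genes tested did. Without correction, the median log2 difference over the 40 genes was 0.00, beside -0.01 over all genes. The median size regardless of sign was 0.21, beside 0.33 over all genes. After correction the median difference was -0.13, beside -0.01 over the protein-coding genes tested, and the median size was 0.21, beside 0.23. Only HNRNPD and SF3B1 differed by more than 0.5 on the log2 scale over both hairpins without correction. In the bulk RNA of a culture, fewer cells that express a gene and less of its RNA per cell cannot be told apart.

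**Figure D1:**
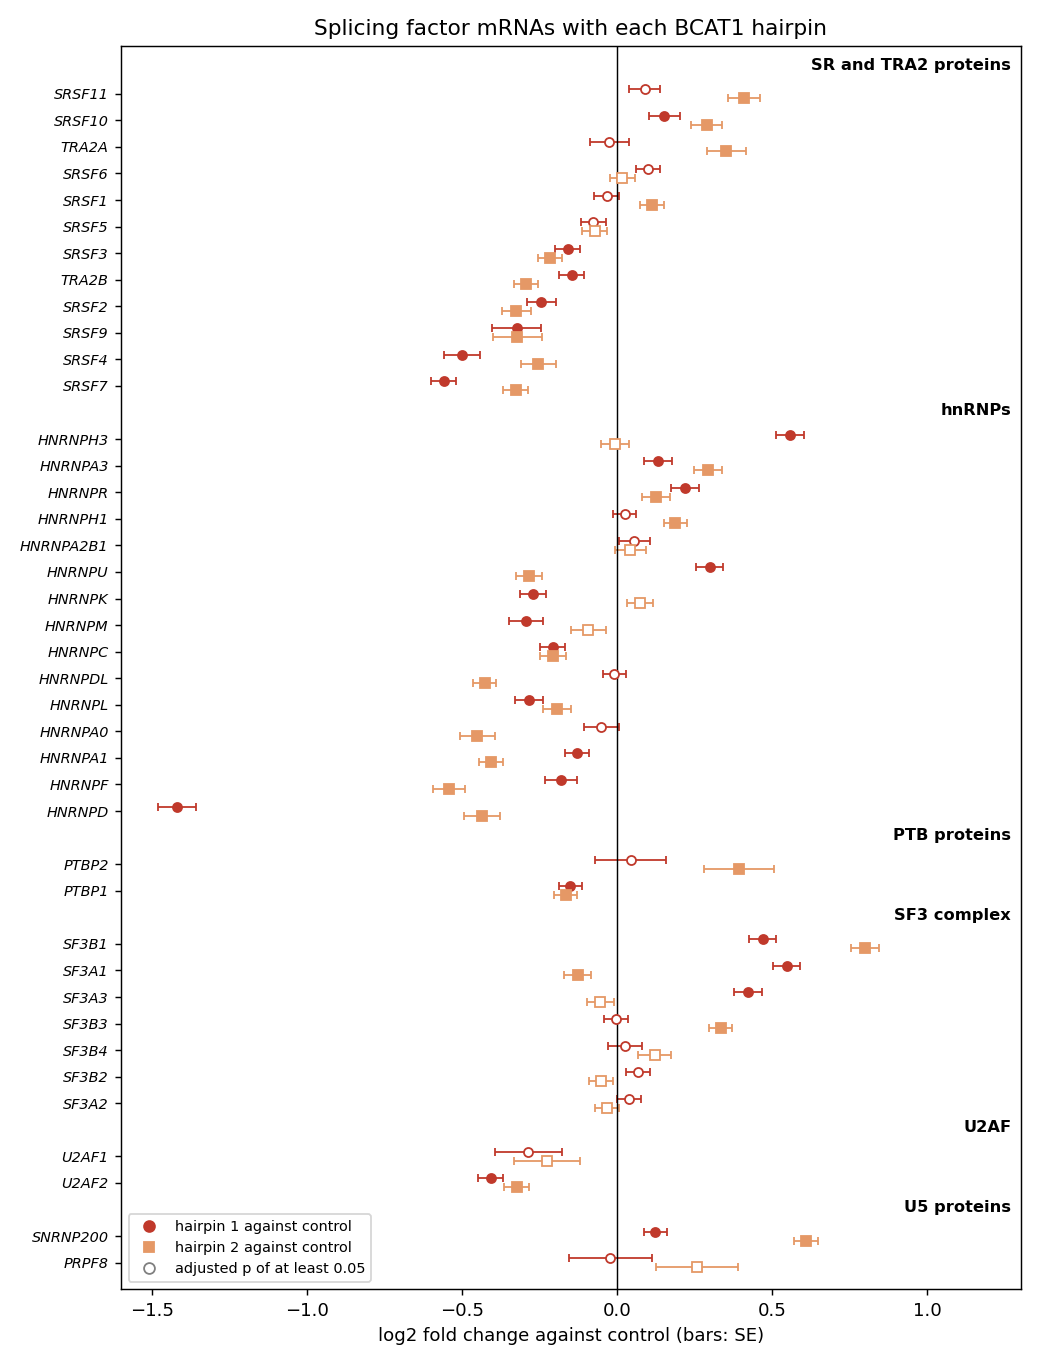
Log2 differences of the 40 genes, grouped by protein class, for hairpin 1 and hairpin 2 against the control hairpin, with bars of 1 standard error and filled symbols where the edgeR adjusted p was under 0.05. HNRNPD lies furthest to the low side with hairpin 1 (-1.42), SF3B1 furthest to the high side with hairpin 2 (0.80), and most other genes lie within 0.5 of 0.

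The stretches upstream of the start sites of HNRNPD and SF3B1 are printed because these genes gave the largest fall and the largest rise, and because both hold CACGTG, the E-box that MYC proteins and related factors bind with MAX. Sequences are the last 120 bases before a RefSeq start site (GRCh38.p14), read 5′ to 3′ on the gene's strand, with CACGTG in capitals. The HNRNPD stretch is chr4:82373992-82374111 and the SF3B1 stretch is chr2:197435094-197435213, both on the minus strand and clear of exons in GENCODE 29. The HNRNPD stretch lies within the GENCODE 29 span of its gene, whose annotated start is further upstream. The SF3B1 stretch lies outside the span of its gene.

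HNRNPD: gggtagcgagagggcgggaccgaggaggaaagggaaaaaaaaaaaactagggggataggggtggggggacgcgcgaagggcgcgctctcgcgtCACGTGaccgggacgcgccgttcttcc

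SF3B1: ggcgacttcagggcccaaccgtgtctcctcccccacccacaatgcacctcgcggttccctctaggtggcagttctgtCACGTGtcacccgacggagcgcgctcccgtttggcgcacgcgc

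The motif begins 27 bases before the HNRNPD start site and 43 bases before the SF3B1 start site. A further listed SF3B1 start site has the same copy of the motif beginning 108 bases upstream. Of the 36 genes among the 40 that have an entry in the promoter table, 6 hold CACGTG within 250 bases upstream (16.7%), and 7.73% of 27305 genes in the table do. These are HNRNPA3, HNRNPD, HNRNPDL, HNRNPH3, HNRNPM and SF3B1. The motif reads the same on both strands, so each match counts once. Among the 6 genes, HNRNPD, HNRNPDL and HNRNPM fell over both hairpins without correction, and SF3B1, HNRNPH3 and HNRNPA3 rose. After the GC and length correction HNRNPM did not pass (-0.03), and HNRNPA3, which rose by 0.21 on the log2 scale, had -0.14. Taken by hairpin without correction, HNRNPDL passed only with hairpin 2, and HNRNPM and HNRNPH3 only with hairpin 1. A match describes these letters and is not evidence of binding.

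Compared per transcript length, the 40 genes spanned a wide range in control cells. HNRNPA1, which represses exons and shuttles between nucleus and cytoplasm, was highest at 1038 ± 4.93 TPM (a unit that also scales by exon length, SD, n = 2). HNRNPK followed at 755 ± 4.12 TPM, and SRSF9 (515 ± 56.0 TPM) and HNRNPM (515 ± 34.0 TPM) did not differ beyond their spread. HNRNPD stood at 445 ± 14.1 TPM in control cells. PTBP2, the PTB protein typical of neurons, was lowest at 3.01 ± 0.36 TPM, far under its paralog PTBP1 at 365 ± 6.84 TPM.

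Of the 12 SR and TRA2 genes, 3 rose over both hairpins, 6 fell and 3 did not pass. The shares over all genes tested were 23.6% and 26.4%. After the GC and length correction 1 rose and 8 fell, where 22.8% and 28.5% of the protein-coding genes tested did. SRSF7, an SR protein that also links spliced mRNA to nuclear export, held 201 and 195 CPM with hairpin 1 and 229 and 236 CPM with hairpin 2, against 295 and 289 CPM in control cells. All 4 knockdown libraries lay below both controls. SRSF7 fell by 0.44 ± 0.03 on the log2 scale over both hairpins (SE, edgeR adjusted p = 1.7e-05), and its corrected value was -0.52.

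SRSF4 held 71.3 and 75.7 CPM with hairpin 1 and 82.6 and 91.6 CPM with hairpin 2, against 104 and 104 CPM in control cells. Its groups did not overlap, and it fell by 0.38 ± 0.05 on the log2 scale (edgeR adjusted p = 0.00028, and -0.21 after correction). Its corrected value was -0.36 with hairpin 1 and -0.06 with hairpin 2, where it did not pass. SRSF2, a protein of nuclear speckles, held 278 and 285 CPM with hairpin 1 and 256 and 276 CPM with hairpin 2, against 340 and 327 CPM in control cells. It fell by 0.29 on the log2 scale with every knockdown library below both controls. SRSF3 and TRA2B, a homolog of the Drosophila Transformer-2 splicing regulator, fell by 0.19 and 0.22 on the log2 scale, again with every knockdown library below both controls (467 to 493 CPM against 558 and 534 CPM in control cells, and 216 to 245 CPM against 265 and 272 CPM in control cells). After correction their falls were larger (-0.42 and -0.27).

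SRSF9 held 185 and 213 CPM with hairpin 1 and 197 and 202 CPM with hairpin 2, against 267 and 231 CPM in control cells. It fell by 0.32 on the log2 scale without correction, but its corrected value was 0.00 and did not pass. SRSF9 also shares 41.2% of its exon bases with GATC on the opposite strand, and whether counting used strand is not stated. Other annotated genes also share 62.15% of the exon bases of SRSF1, 34.7% of SRSF2, 22.3% of HNRNPL and 12.8% of HNRNPM.

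The rises among the SR genes depended on the correction or on single libraries. SRSF10, which can act as a repressor when it loses its phosphates, held 164 to 182 CPM in knockdown cells and 142 and 156 CPM in control cells. It rose by 0.22 on the log2 scale, but it had -0.13 after correction and then passed as a fall. SRSF11 held 97.4 to 127 CPM in knockdown cells and 89.1 and 95.5 CPM in control cells, and rose by 0.25 but had -0.01 after correction. TRA2A held 87.8 and 82.1 CPM with hairpin 1 and 114 and 107 CPM with hairpin 2, against 81.9 and 91.2 CPM in control cells. Hairpin 1 libraries overlapped the controls and hairpin 2 libraries lay above them. TRA2A rose by 0.16 over both hairpins (edgeR adjusted p = 0.037), but the call was lost without replicate 1 of hairpin 1 (0.14), of hairpin 2 (0.13) or of the control (0.08). SRSF1, SRSF5 and SRSF6 did not pass over both hairpins without correction, and SRSF5 and SRSF6 passed as falls after it (-0.14 and -0.19). SRSF1, the most studied SR protein in cancer, held 362 and 354 CPM with hairpin 1 and 395 and 397 CPM with hairpin 2, against 358 and 375 CPM in control cells. SRSF5 held 134 to 140 CPM in knockdown cells and 143 and 146 CPM in control cells, and SRSF6 held 206 to 225 CPM in knockdown cells and 206 and 207 CPM in control cells.

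**Figure D2:**
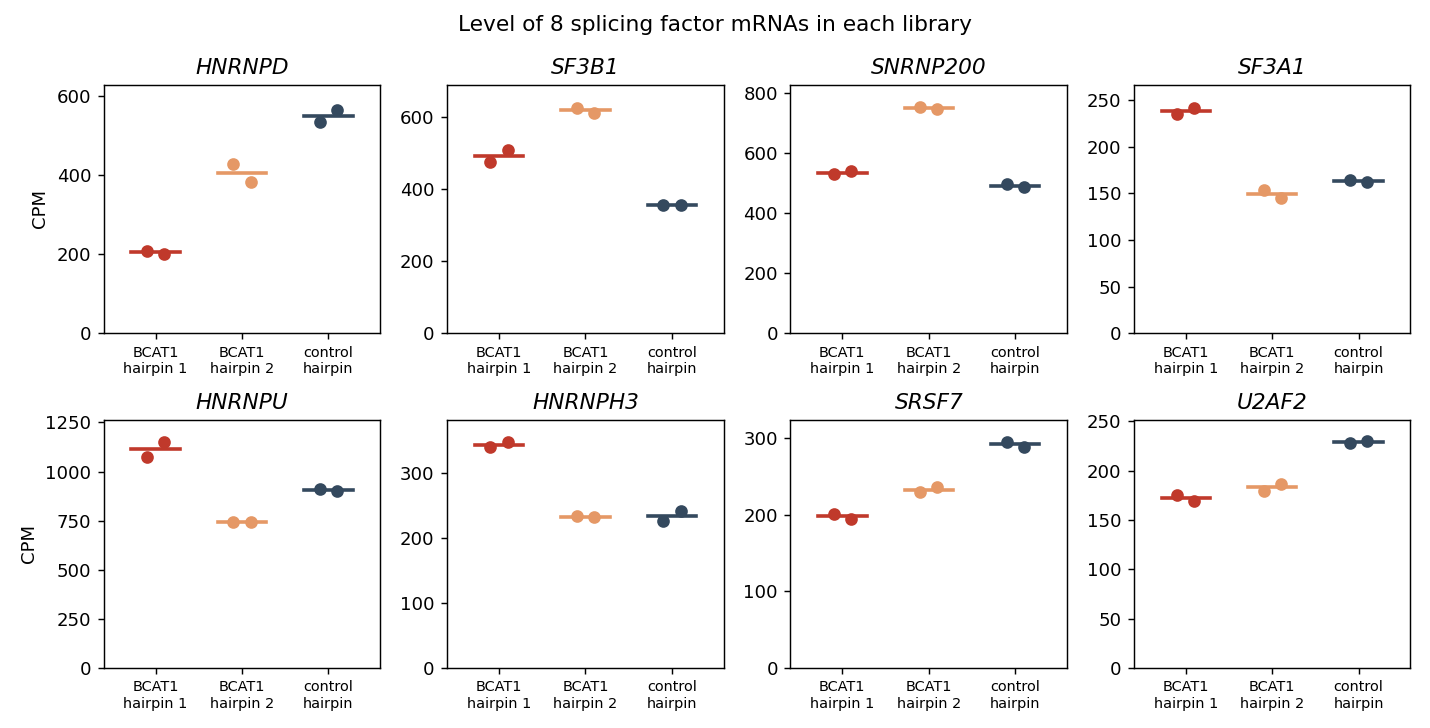
Normalised levels in CPM of 8 splicing factor genes in each of the 6 libraries, with 1 point per library and a line at the mean of each group. HNRNPD is lowest in the 2 hairpin 1 libraries (209 and 201 CPM), and SF3B1 is higher in all 4 knockdown libraries than in the controls.

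Of the 15 hnRNP genes, 4 rose over both hairpins, 8 fell and 3 did not pass. Over all genes tested, 23.6% rose and 26.4% fell. After the GC and length correction 1 hnRNP gene rose and 11 fell, where 22.8% and 28.5% of the protein-coding genes tested did. HNRNPD (ENSG00000138668, chr4:82352498-82374503, minus strand, hg38), also called AUF1, binds AU-rich elements and acts in mRNA decay as well as splicing. HNRNPD held 209 and 201 CPM with hairpin 1 and 429 and 382 CPM with hairpin 2, against 534 and 563 CPM in control cells. Every knockdown library lay below both controls, and both hairpin 1 libraries lay below both hairpin 2 libraries. HNRNPD fell 2.68-fold with hairpin 1 (log2 -1.42 ± 0.06, edgeR adjusted p = 9.3e-07) and 1.35-fold with hairpin 2 (log2 -0.44 ± 0.06, edgeR adjusted p = 0.00037). It was the only gene among the 40 that passed edgeR's test for a fold over 1.5 with hairpin 1, where 4.61% of all genes passed as rises and 4.84% as falls. It was also the only one over both hairpins, where 2.83% and 2.71% of all genes did. The corrected values were -1.46 and -0.49.

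HNRNPDL, its paralog, held 273 and 267 CPM with hairpin 1 and 203 and 201 CPM with hairpin 2, against 271 and 274 CPM in control cells. Hairpin 1 libraries overlapped the controls, and hairpin 2 libraries lay below them. HNRNPDL fell by 0.43 ± 0.04 on the log2 scale with hairpin 2 (edgeR adjusted p = 3.7e-05) and did not pass with hairpin 1 (edgeR adjusted p = 0.85), although after correction it passed there too (-0.24).

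HNRNPA1, HNRNPF and HNRNPA0 were lower with hairpin 2 than with hairpin 1 (log2 -0.28, -0.36 and -0.40, edgeR adjusted p = 0.00056, 0.00055 and 0.00054). HNRNPA1 held 1601 and 1669 CPM with hairpin 1 and 1367 and 1330 CPM with hairpin 2, against 1776 and 1803 CPM in control cells. HNRNPF, which binds runs of G, held 300.0 and 324 CPM with hairpin 1 and 233 and 251 CPM with hairpin 2, against 352 and 355 CPM in control cells. Both genes had every knockdown library below both controls. HNRNPA1 fell by 0.27 and HNRNPF by 0.36 on the log2 scale over both hairpins (-0.44 and -0.40 after correction). HNRNPA0 held 302 and 293 CPM with hairpin 1 and 239 and 212 CPM with hairpin 2, against 313 and 304 CPM in control cells, and fell by 0.25 on the log2 scale over both hairpins (-0.69 after correction). HNRNPC, which binds runs of U and keeps Alu elements out of mRNA, held 635 and 615 CPM with hairpin 1 and 642 and 610 CPM with hairpin 2, against 723 and 722 CPM in control cells. HNRNPC had a log2 difference of -0.21 with each hairpin, and -0.50 over both after correction.

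HNRNPL, which binds CA repeats, held 270 to 299 CPM in knockdown cells and 340.3 and 343 CPM in control cells. HNRNPM held 453 to 546 CPM in knockdown cells and 582 and 535 CPM in control cells. HNRNPL fell by 0.24 on the log2 scale and HNRNPM by 0.19, but neither passed after correction (-0.03 each). The HNRNPM call was also lost without replicate 1 of the control (-0.14). HNRNPA3 held 633 to 739 CPM in knockdown cells and 578 and 587 CPM in control cells, and HNRNPR held 479 to 530 CPM in knockdown cells and 431 and 450 CPM in control cells. HNRNPA3 rose by 0.21 and HNRNPR by 0.17 on the log2 scale, but after correction both passed as falls (-0.14 and -0.24). The HNRNPR rise was lost without replicate 1 of the control (0.14). HNRNPH1 held 423 to 477 CPM in knockdown cells and 415 and 422 CPM in control cells. It rose by 0.10 on the log2 scale, and that call was lost after correction (0.01) and without either replicate of hairpin 2 or of the control (0.09 to 0.11).

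HNRNPH3 and HNRNPU were lower with hairpin 2 than with hairpin 1 (log2 -0.56 and -0.58, edgeR adjusted p = 2e-05 and 1.3e-05). HNRNPH3, a G-tract binder of the HNRNPH family, held 340 and 347 CPM with hairpin 1 and 234 and 231 CPM with hairpin 2, against 225 and 242 CPM in control cells. Hairpin 1 libraries lay above all others, and hairpin 2 libraries overlapped the controls. HNRNPH3 rose by 0.56 ± 0.04 on the log2 scale with hairpin 1 (edgeR adjusted p = 1.9e-05) and did not pass with hairpin 2 (edgeR adjusted p = 0.92). After correction HNRNPH3 passed as a rise with hairpin 1 (0.53) and as a fall with hairpin 2 (-0.10). HNRNPU, which also ties RNA to chromatin, held 1076 and 1150 CPM with hairpin 1 and 744 and 743 CPM with hairpin 2, against 913 and 899 CPM in control cells. It lay above the controls with hairpin 1 and below them with hairpin 2. HNRNPU fell by 0.28 ± 0.04 on the log2 scale with hairpin 2 (edgeR adjusted p = 0.00068; -0.79 after correction), and rose by 0.30 ± 0.04 with hairpin 1 (edgeR adjusted p = 0.00053) only without correction, since its corrected value was -0.11 and did not pass.

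HNRNPA2B1 and HNRNPK did not pass over both hairpins without correction, and passed as falls after it (-0.28 and -0.22). HNRNPA2B1 held 1161 to 1268 CPM in knockdown cells and 1178 and 1182 CPM in control cells. HNRNPK, which binds runs of C, held 790 and 744 CPM with hairpin 1 and 985 and 965 CPM with hairpin 2, against 918 and 933 CPM in control cells. It lay below the controls with hairpin 1 and above them with hairpin 2, and its fall of 0.27 with hairpin 1 passed (edgeR adjusted p = 0.00081).

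PTBP1, which represses many neuronal exons, held 493 and 486 CPM with hairpin 1 and 480 and 490 CPM with hairpin 2, against 549 and 539 CPM in control cells. It fell by 0.16 on the log2 scale over both hairpins without correction, but had 0.02 after it. PTBP2 held 16.1 and 13.9 CPM with hairpin 1 and 19.2 and 19.1 CPM with hairpin 2, against 13.3 and 15.9 CPM in control cells. Only its hairpin 2 libraries lay above both controls, and the gene did not pass over both hairpins without correction (edgeR adjusted p = 0.10). After correction PTBP2 passed as a fall (-0.34).

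The SF3 complex holds the U2 particle at the branch point. Of its 7 genes among the 40, 4 rose over both hairpins, 0 fell and 3 did not pass. Over all genes tested, 23.6% rose and 26.4% fell. PHF5A, an SF3B subunit outside the 40 genes, fell by 0.93 on the log2 scale (-0.70 after correction). Summed over the 7 genes, the level was 2213 and 2252 CPM with hairpin 1 and 2247 and 2226 CPM with hairpin 2, against 1927 and 1916 CPM in control cells. The sum is uncorrected, and the genes that passed without correction differed by hairpin. With hairpin 1, SF3A1, SF3A3 and SF3B1 passed as rises. With hairpin 2, SF3B1 and SF3B3 passed as rises, SF3A1 passed as a fall and the others did not pass. After the GC and length correction 6 of the 7 genes passed as rises and SF3B3 as a fall, where 22.8% and 28.5% of the protein-coding genes did. SF3B1 (ENSG00000115524, chr2:197389784-197435091, minus strand, hg38) is the subunit that clamps the branch point and is mutated in several cancers. It held 474 and 508 CPM with hairpin 1 and 623 and 611 CPM with hairpin 2, against 354 and 356 CPM in control cells. All 4 knockdown libraries lay above both controls. SF3B1 rose 1.38-fold with hairpin 1 (log2 0.47 ± 0.04, edgeR adjusted p = 4.4e-05) and 1.74-fold with hairpin 2 (log2 0.80 ± 0.04, edgeR adjusted p = 5e-06). The rise with hairpin 2 passed edgeR's test for a fold over 1.5 (adjusted p = 0.0034), which no other of the 40 genes passed with hairpin 2, and which 3.99% of all genes passed as rises and 3.46% as falls. Corrected for GC content and length, the rise was 0.20 over both hairpins, 0.31 with hairpin 2 and 0.09 with hairpin 1, where it did not pass.

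SF3A1 and SF3A3 rose with hairpin 1, whereas with hairpin 2 SF3A1 fell and SF3A3 did not pass. SF3A1 held 235 and 242 CPM with hairpin 1 and 154 and 145 CPM with hairpin 2, against 164 and 163 CPM in control cells. SF3A3 held 255 and 263 CPM with hairpin 1 and 187 and 186 CPM with hairpin 2, against 188 and 199.6 CPM in control cells. For both genes, hairpin 1 libraries lay above the controls and hairpin 2 libraries below them. With hairpin 1, SF3A1 rose by 0.55 ± 0.04 and SF3A3 by 0.42 ± 0.04 on the log2 scale (edgeR adjusted p = 1.7e-05 and 8e-05). With hairpin 2, SF3A1 fell by 0.13 ± 0.04 on the log2 scale (edgeR adjusted p = 0.037; -0.17 after correction), and its rise over both hairpins is the mean of a rise and a fall.

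SF3B3 held 346 and 355 CPM with hairpin 1 and 440.0 and 445 CPM with hairpin 2, against 351 and 352 CPM in control cells. Hairpin 1 libraries overlapped the controls, and hairpin 2 libraries lay above them. It rose by 0.16 on the log2 scale over both hairpins, but had -0.13 after correction. SF3A2, SF3B2 and SF3B4 did not pass over both hairpins without correction and passed as rises after it (0.40, 0.15 and 0.35). SF3A2 held 123 to 132 CPM in knockdown cells and 127 and 128 CPM in control cells, and it shares 20.3% of its exon bases with PLEKHJ1. SF3B2 held 610 to 676 CPM in knockdown cells and 626 and 642 CPM in control cells. SF3B4 held 94.2 to 106 CPM in knockdown cells and 93.3 and 99.8 CPM in control cells.

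Both U2AF genes fell over both hairpins, U2AF1 only narrowly. U2AF2, which binds the polypyrimidine tract before the end of the intron, held 176 and 170 CPM with hairpin 1 and 180 and 186 CPM with hairpin 2, against 228.5 and 230.1 CPM in control cells. Every knockdown library lay below both controls. U2AF2 fell by 0.37 ± 0.03 on the log2 scale over both hairpins (edgeR adjusted p = 4.9e-05), and by 0.11 after correction (edgeR adjusted p = 0.038). Its corrected value was -0.20 with hairpin 1 and -0.02 with hairpin 2, where it did not pass. U2AF1, its partner that reads the last bases of the intron, held 50.2 and 65.6 CPM with hairpin 1 and 62.3 and 58 CPM with hairpin 2, against 71.8 and 69.2 CPM in control cells. All 4 knockdown libraries lay below both controls, but the fall of 0.26 on the log2 scale only just passed (edgeR adjusted p = 0.045). It was lost after correction (-0.07) and without either replicate of hairpin 2 or of the control (-0.29 to -0.23).

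U2AF1 counts are also divided. U2AF1L5, a near-identical copy annotated elsewhere on chromosome 21, held 2514 and 2270 counts with hairpin 1 and 2619 and 2716 counts with hairpin 2, against 2804 and 2714 counts in control cells. That is 110.7% of the count of U2AF1 itself. With both rows added, the fall was 0.19 on the log2 scale (edgeR adjusted p = 0.026). HNRNPA1 has 76 rows of copies and pseudogenes, which together held 7.78% of its counts, and its fall was 0.27 on the log2 scale with them added.

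Of the U5 proteins, SNRNP200, the helicase that unwinds U4 from U6, held 528 and 539 CPM with hairpin 1 and 751 and 745 CPM with hairpin 2, against 496 and 485 CPM in control cells. Its knockdown libraries lay above both controls, and the hairpin 2 libraries were the highest. SNRNP200 rose by 0.61 ± 0.04 on the log2 scale with hairpin 2 (edgeR adjusted p = 7.5e-06; 0.48 after correction). With hairpin 1 it rose by 0.12 without correction but had -0.04 after it, and leaving out any library but replicate 1 of hairpin 1 ended that call (0.10 to 0.13). PRPF8, the large scaffold of the catalytic centre, held 197 and 139 CPM with hairpin 1 and 195 and 214 CPM with hairpin 2, against 166 and 176 CPM in control cells. Its hairpin 1 libraries lay on either side of the controls, and it did not pass in any comparison without correction. After correction it was higher with hairpin 2 than with hairpin 1 (log2 0.31, edgeR adjusted p = 0.048).

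Hairpin by hairpin, 9 of the 40 genes rose with hairpin 1 and 15 fell, where 24.2% and 24.9% of all genes did (49.1% in either direction). With hairpin 2, 11 rose and 17 fell, where 23.9% and 25.4% of all genes did (49.3% in either direction). Both sets of differences use the same control libraries, so they are not independent. The corrected counts were 6 higher and 22 lower with hairpin 1 (27.2% and 28.5% of the protein-coding genes tested), and 6 higher and 19 lower with hairpin 2 (23.7% and 27.4%). All 4 knockdown libraries lay above both controls for 7 of the 40 genes (22% of all genes did so), below both controls for 16 (23.6% of all genes), and the groups overlapped for the other 17.

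The direct test of hairpin 2 against hairpin 1 called 24 of the 40 genes, 14 higher with hairpin 2 and 10 lower, where 22.9% and 23.3% of all genes were called (46.2% in either direction). Without replicate 1 of hairpin 2, 9 genes were higher instead of 14. HNRNPD was higher with hairpin 2 than with hairpin 1 by 0.98 ± 0.06 on the log2 scale (edgeR adjusted p = 4.6e-06). It alone passed the test for a fold over 1.5 between hairpins, where 5.11% of all genes passed as higher and 4.36% as lower. SF3A1 (-0.67), HNRNPU (-0.58), HNRNPH3 (-0.56) and SF3A3 (-0.48) were lower with hairpin 2 than with hairpin 1. SNRNP200 was higher by 0.49 on the log2 scale. None of these differences changed sign after the GC and length correction.

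The corrected and uncorrected values differed more for some genes than for others. The log2 difference over both hairpins, taken across 13907 protein-coding genes that are not independent of each other, had a Spearman correlation of -0.45 with GC content. Over the 40 genes it was -0.38 with GC content and 0.48 with exon length, over values that share the same 6 libraries. Of the 29 genes called without correction over both hairpins, 18 kept their call and direction, 6 as rises and 12 as falls. The rises were TRA2A, HNRNPH3, SF3A1, SF3A3, SF3B1 and SNRNP200. Taken by hairpin after correction, none of these genes passed as a rise with both hairpins. TRA2A (-0.03), SF3B1 (0.09) and SNRNP200 (-0.04) did not pass with hairpin 1. With hairpin 2, SF3A3 did not pass (-0.08), and HNRNPH3 (-0.10) and SF3A1 (-0.17) passed as falls. The falls were SRSF2, SRSF3, SRSF4, SRSF7, TRA2B, HNRNPA0, HNRNPA1, HNRNPC, HNRNPD, HNRNPDL, HNRNPF and U2AF2. Taken by hairpin after correction, SRSF4 (-0.06) and U2AF2 (-0.02) did not pass with hairpin 2, and the others passed as falls with both hairpins. The call was lost for 7 genes and turned to the opposite direction for 4, SRSF10, HNRNPA3, HNRNPR and SF3B3. A further 9 genes passed only after correction, among them HNRNPU (-0.45), PTBP2 (-0.34) and SF3A2 (0.40). Whether the GC trend is technical was not tested.

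**Figure D3:**
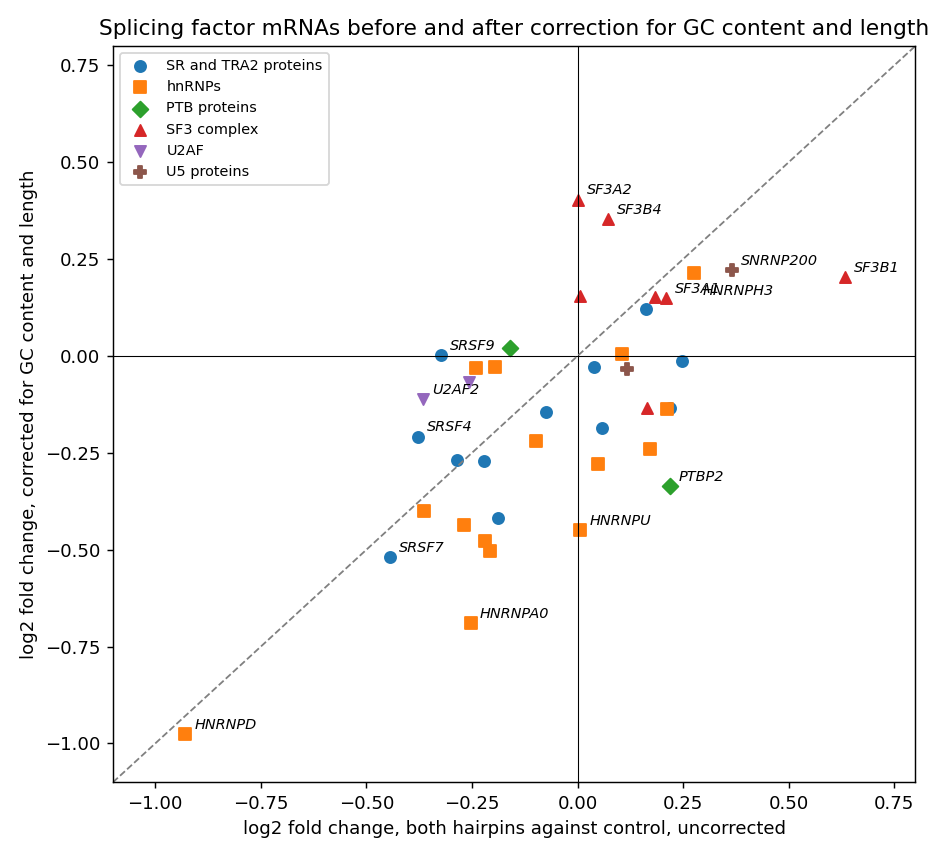
Log2 differences of the 40 genes over both hairpins against control, after GC and length correction (vertical axis) against the same without correction (horizontal axis). HNRNPD lies near the diagonal (-0.98 against -0.93), whereas SF3B1 lies well under it (0.20 against 0.63) and SRSF10, HNRNPA3, HNRNPR and SF3B3 cross 0.

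Other splicing genes, listed by complex, gave counts over both hairpins that can be read beside those of the 40 genes and beside the 23.6% and 26.4% of all genes. Among 21 genes of Sm, LSm and U1 proteins, which form the cores of the small nuclear particles, 0 rose, 19 fell and 2 did not pass. Their median log2 difference was -0.41, and 14 of them fell after correction (median -0.32). SNRPD2, an Sm protein, held 80.6 and 76.5 CPM with hairpin 1 and 93.9 and 94.6 CPM with hairpin 2, against 141 and 139 CPM in control cells. The groups did not overlap, and SNRPD2 fell by 0.70 on the log2 scale (-0.36 after correction). SNRPG and LSM2 fell by 0.57 each on the log2 scale, although LSM2 did not pass after correction (-0.18).

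The 24 other SR-related, hnRNP and U2 genes included 4 that rose and 11 that fell (median -0.13), and after correction 5 rose and 12 fell (median -0.14). PHF5A, a subunit of SF3B, held 56.6 and 54.5 CPM with hairpin 1 and 24.6 and 21.6 CPM with hairpin 2, against 66.6 and 70.4 CPM in control cells. Its knockdown libraries lay below both controls, with hairpin 2 libraries the lowest. PHF5A fell by 0.93 on the log2 scale (-0.70 after correction). HNRNPUL1 fell by 0.52 and SNRPA1, a U2 protein, by 0.47 on the log2 scale (-0.38 and -0.25 after correction). Of 16 tri-snRNP genes 1 rose and 10 fell (median -0.21), and after correction 2 rose and 7 fell (median -0.07). USP39 fell by 0.49 on the log2 scale (-0.41 after correction). PPIH had a log2 difference of -0.32 and PRPF4B of 0.36, but neither passed after correction (-0.05 and 0.10), and PPIH did not pass without replicate 2 of the control (-0.18). In the exon junction and nonsense-mediated decay list, 3 of 18 genes rose and 10 fell (median -0.14), and after correction 3 rose and 8 fell (median -0.01). With hairpin 1 alone 7 of these genes rose and 6 fell (median 0.03), and with hairpin 2 alone 2 rose and 8 fell (median -0.14). SMG1, the kinase that starts nonsense-mediated decay, rose by 1.14 on the log2 scale (0.68 after correction), and MAGOH fell by 0.58 (-0.45 after correction).

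Rises outnumbered falls among kinases and transporters of SR proteins, where 8 of 13 genes tested rose and 3 fell (median 0.32), although after correction 4 rose and 2 fell (median 0.06). PPP1CC, a phosphatase subunit, rose by 0.57 on the log2 scale (0.34 after correction). TNPO1, an import receptor, rose by 0.57 and the kinase DYRK1A by 0.48, but neither passed after correction (0.06 each). Among tissue-specific and other regulators 16 of 35 genes tested rose and 3 fell (median 0.17), and after correction 13 rose and 11 fell (median 0.08). MBNL1 rose by 0.70 on the log2 scale (0.29 after correction). MBNL3 rose by 0.62 but did not pass after correction (0.09). NOVA1, a neuronal regulator under 1 CPM in every library, had a log2 difference of 1.53 that did not pass after correction (1.21), in DESeq2 (1.55), or without replicate 1 of hairpin 2 (1.28) or replicate 2 of the control (1.13). Of 23 genes of the PRP19 complex and step factors 8 rose and 7 fell (median 0.03), and after correction 8 rose and 4 fell (median 0.07). DDX41 fell by 0.52 on the log2 scale (-0.24 after correction), whereas the rises of CDC5L (0.44) and AQR (0.42) did not pass after correction (0.06 and -0.05). Of 9 genes of the minor spliceosome 2 rose and 4 fell (median -0.07), and after correction 2 rose and 2 fell (median 0.09). SNRNP48 rose by 0.64 on the log2 scale, SNRNP25 fell by 0.64 and SNRNP35 fell by 0.46 (0.38, -0.22 and -0.32 after correction).

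**Figure D4:**
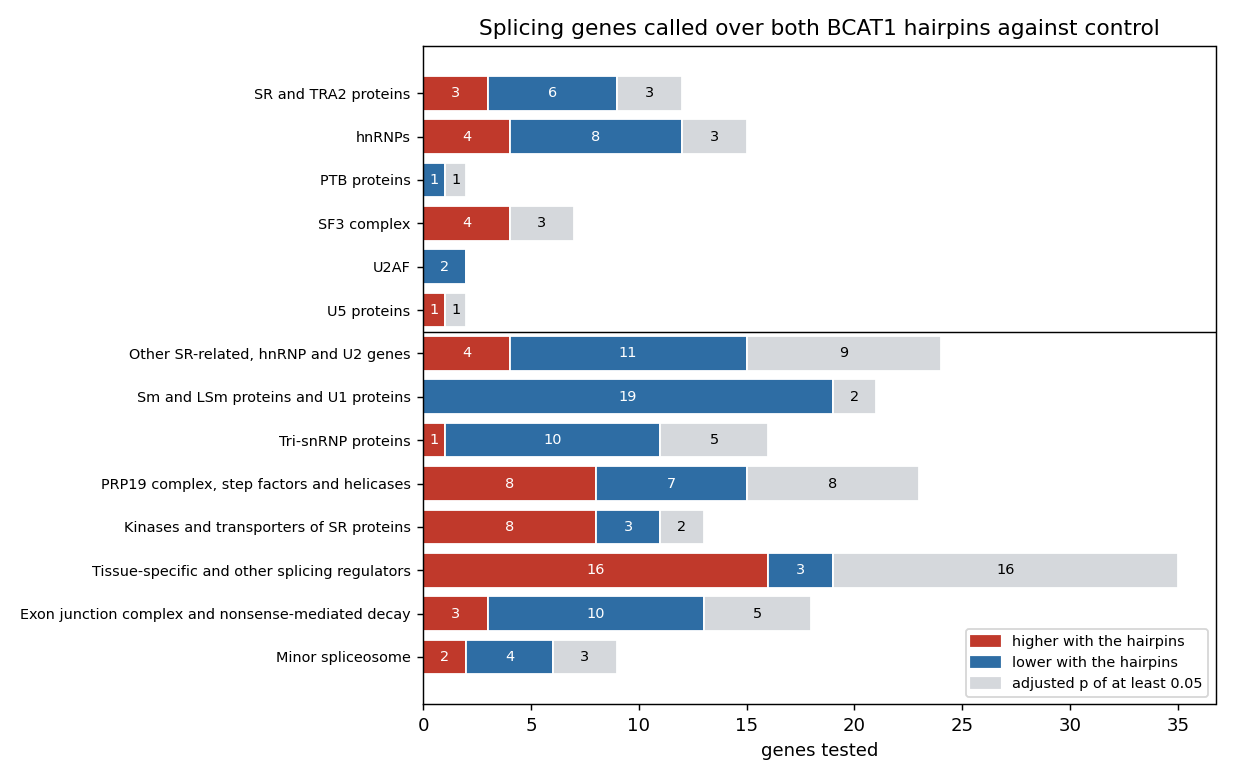
Number of genes that rose, fell or did not pass (edgeR adjusted p under 0.05, both hairpins against control) in the 40 genes by class and in each other list of splicing genes. The Sm, LSm and U1 list has 0 rises and 19 falls. The SF3 genes among the 40 have 4 rises and 0 falls without the GC and length correction (6 and 1 with it). Over all genes tested, 23.6% rose and 26.4% fell without correction.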

How the data were processed

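Per the labels' protocols, TRIzol was used for total RNA and an Illumina TruSeq kit for libraries. The authors deposited raw counts (whole numbers, not normalized) of 6 libraries for Ensembl genes. Per the submitters' processing notes, HISAT2 2.2.0, StringTie and hg38 were used. The sources used here do not give the annotation release, counting options or strand use.

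Symbols came from a name table that held 56105 of the 64252 gene IDs, and coordinates, exon lengths and overlaps from GENCODE 29. R 4.3.3 and edgeR 4.0.16 were used for all tests: filterByExpr by group (minimum count 10), TMM, and glmQLFit and glmQLFTest on all 6 libraries with a term per group. This left 3 residual degrees of freedom. All p-values are two-sided and were adjusted by Benjamini-Hochberg (threshold 0.05), over 18734 genes, or over 13907 protein-coding genes after the GC and length correction. The standard error is the log2 fold change divided by the square root of its F statistic. CPM use TMM library sizes, and TPM divide by merged exon length. edgeR's common biological coefficient of variation came to 8.66%.

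The GC and length correction fitted log2 CPM of each library on natural splines of both (5 degrees of freedom each, prior count 2) over 13907 protein-coding genes and entered the fit as an offset. It can remove a biological as well as a technical trend. Total counts of at least 32333416 per library leave the spread between replicates, not counting error, as the main limit for these genes. The test was tested on simulated data with few changed genes, no GC trend and the same change with both hairpins. The libraries here differ on each of these points, so the simulation does not give the test's error rate for them. Replicates differed by a mean chi-square of 6.19 (hairpin 1), 5.45 (hairpin 2) and 7.98 (control) per gene, against 1 from sampling noise. Values over 1 do not show whether replicates were separate cultures, since repeat libraries of the same culture can also exceed 1. Same-numbered replicates did not deviate together over the genes tested (correlations -0.04 to 0.00), and the main test did not pair them. Such correlations cannot show whether same-numbered libraries were prepared together.

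Alternatives were RLE size factors, no filter, a filter of 1 CPM in 2 libraries, DESeq2 1.42.0, a replicate block, the correction with and without the block, a fold threshold of 1.5, only the groups compared and each library left out. Adding copies and overlapping genes was chosen after seeing the data. The 40 genes and the other lists were chosen with earlier results of these data known. All 40 genes are named, with BCAT1. Of each other list, at most 3 genes are named, those with the largest log2 difference among genes that passed with all 4 knockdown libraries on 1 side of both controls. A gene chosen in this way was left out of the text.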

Additional observations from a re-analysis of the deposited data

Results flagged for a closer look

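The direct edgeR test of hairpin 2 against hairpin 1 passed for 24 of the 40 genes, where 46.2% of all genes passed. After the GC and length correction the calls of HNRNPA3, PTBP2 and SF3B2 were lost. Both hairpins are set against the same control libraries, and only 2 libraries stand behind each hairpin. Values below are log2 differences, hairpin 2 minus hairpin 1.

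Among the SR and TRA2 genes, the difference was 0.38 for TRA2A, 0.32 for SRSF11, 0.25 for SRSF4, 0.23 for SRSF7, 0.15 for SRSF1 and -0.15 for TRA2B. Among the hnRNP genes with higher levels under hairpin 2, it was 0.98 for HNRNPD, 0.35 for HNRNPK, 0.20 for HNRNPM, 0.16 for HNRNPA3 and 0.16 for HNRNPH1. Among those with lower levels under hairpin 2, it was -0.58 for HNRNPU, -0.56 for HNRNPH3, -0.42 for HNRNPDL, -0.40 for HNRNPA0, -0.36 for HNRNPF and -0.28 for HNRNPA1. PTBP2 differed by 0.35. In the SF3 complex, SF3B3 differed by 0.34, SF3B1 by 0.33, SF3B2 by -0.12, SF3A3 by -0.48 and SF3A1 by -0.67. SNRNP200 differed by 0.49.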

How the results depend on the processing

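RLE size factors and DESeq2 ended no call of the 40 genes. No low-count filter and a filter of 1 CPM ended 8 and 1 of 105 calls over the 4 comparisons. Fitting only the groups compared, possible for the 3 comparisons of 2 groups, ended 1 call and kept 75. A test for a fold over 1.5 left 0 higher and 1 lower over both hairpins (531 and 508 of all genes), 0 and 1 with hairpin 1, 1 and 0 with hairpin 2, and 1 and 0 for hairpin 2 against hairpin 1.

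The main test did not treat the labels' replicate numbers as pairs. A replicate block gave 11 higher and 16 lower over both hairpins and ended 7 calls, those of TRA2A and U2AF1 over both hairpins, SRSF10 with hairpin 1, SRSF1, HNRNPR and SF3A1 with hairpin 2, and PTBP2 between hairpins.

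The GC and length correction, with or without the block, left 6 higher with hairpin 2 instead of 11. Among genes called without correction, it turned the sign over both hairpins for SRSF9 (0.0015, with the block 0.0016), SRSF10 (-0.13), SRSF11 (-0.014), HNRNPA3 (-0.14), HNRNPR (-0.24), PTBP1 (0.019), SF3B3 (-0.13) and AQR (-0.049). Among the 11 of the 40 genes not called without correction, the sign over both hairpins also turned for SRSF1 (-0.03), SRSF6 (-0.19), HNRNPA2B1 (-0.28), HNRNPU (-0.45), PTBP2 (-0.34) and PRPF8 (-0.03). With hairpin 1 it did so for SRSF10 (-0.15), HNRNPA3 (-0.17, with the block -0.16), HNRNPR (-0.14), HNRNPU (-0.11) and SNRNP200 (-0.035). With hairpin 2 it did so for SRSF9 (0.033), SRSF10 (-0.12), HNRNPA3 (-0.11), HNRNPL (0.0497, with the block 0.0493), HNRNPR (-0.34), PTBP1 (0.0625) and PTBP2 (-0.24). The cause was not tested.

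With each library left out in turn, 9 to 13 genes were higher and 15 to 18 lower over both hairpins (all genes 3489 to 4159 and 4028 to 4730), 6 to 7 and 12 to 15 with hairpin 1, 8 to 12 and 14 to 18 with hairpin 2, and 9 to 15 and 8 to 10 for hairpin 2 against hairpin 1. With 2 libraries per group, small differences such as those of U2AF1, HNRNPH1 and TRA2A sit near the threshold.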
